A study of Mus musculus with 2 samples.

Results

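The SLC26 genes are a family of anion transporter genes that includes prestin (Slc26a5), the motor protein of outer hair cells. They were taken from the deposited mouse annotation by gene name: Slc26a1, Slc26a2, Slc26a3, Slc26a4, Slc26a5, Slc26a6, Slc26a7, Slc26a8, Slc26a9 and Slc26a11. All 10 names were found among 27998 mouse genes, of which 22048 were protein-coding, and they accounted for 1010 rows of the annotation. A further gene named in the same way, Slc26a10, is also annotated as protein-coding and is not among the 10. The study itself set 2 single-cell libraries of mouse cochleae side by side, 1 from cochleae given the Anc80-GFP control virus and 1 from cochleae given Anc80-Ikzf2. Helios, the product of Ikzf2, is a transcription factor that outer hair cells make. Animals of both groups were at postnatal day 8 and carried Myo15-Cre, active in hair cells, with the Ai14 tdTomato reporter, and tdTomato-positive cells were sorted before a droplet 3' end protocol. Expression was not analysed here, so every value below is a property of a gene model on mouse assembly GRCm38, has no replicate error, and says nothing about either library.

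SLC26 proteins exchange or conduct chloride, bicarbonate, sulfate, iodide or oxalate across membranes. Each has a membrane domain of paired inverted repeats and a cytoplasmic STAS domain at its C-terminal end. Prestin responds to voltage by changing its area in the lateral membrane of outer hair cells, which lets these cells shorten and lengthen with sound. In the inner ear pendrin (Slc26a4) is the other well known member, made by epithelial cells bordering the endolymph.

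Prestin had the gene structure of most of its relatives, a coding sequence cut into many short exons, and shared nearly all of its intron positions with them. Its gene, ENSMUSG00000029015, lay on the minus strand of chromosome 5 at chr5:21810655-21865604 and spanned 54.95 kb. The transcript Slc26a5-001 had 20 exons, 18 of them coding, 2235 coding bases with the stop codon and 744 codons for amino acids. Its 18 coding exons measured, in order, 152, 140, 111, 167, 165, 153, 83, 148, 114, 78, 96, 107, 70, 93, 108, 201, 55 and 194 bases. Of all protein-coding genes, 11.7% had more coding exons than prestin, and the median gene had 6. The gene was also longer than most, with 20.6% of protein-coding genes longer.

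Coding exon 3 is shown because it was the exon most alike between prestin and its paralogues, and because a prestin isoform lacks it. Each sequence is the sense strand of the exon, 111 bases, from GENCODE transcripts on GRCm38. In prestin it lay at chr5:21840566-21840676 on the minus strand. Capitals mark bases that differ from prestin.
Slc26a5: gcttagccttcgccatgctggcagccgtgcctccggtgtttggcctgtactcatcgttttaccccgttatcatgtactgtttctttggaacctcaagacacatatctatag
Slc26a3: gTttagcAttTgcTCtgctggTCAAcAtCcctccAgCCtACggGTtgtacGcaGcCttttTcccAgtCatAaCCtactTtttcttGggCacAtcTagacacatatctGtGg
Slc26a4: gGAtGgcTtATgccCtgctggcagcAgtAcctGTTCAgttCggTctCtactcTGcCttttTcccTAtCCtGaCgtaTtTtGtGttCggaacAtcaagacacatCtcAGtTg
Slc26a6: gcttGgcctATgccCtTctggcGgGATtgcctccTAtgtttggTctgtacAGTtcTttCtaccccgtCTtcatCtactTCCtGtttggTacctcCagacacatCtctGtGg
Slc26a7: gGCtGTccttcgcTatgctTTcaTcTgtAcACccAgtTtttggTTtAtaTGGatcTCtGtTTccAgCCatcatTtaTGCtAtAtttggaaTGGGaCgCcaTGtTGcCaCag
Slc26a9: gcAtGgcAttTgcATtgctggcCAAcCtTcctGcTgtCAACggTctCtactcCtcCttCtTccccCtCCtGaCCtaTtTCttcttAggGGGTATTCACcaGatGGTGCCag
Slc26a6 differed from prestin at 29 of the 111 bases, Slc26a3 at 34, Slc26a4 at 37, Slc26a7 at 46 and Slc26a9 at 50. The exon of Slc26a8 had the same borders in the protein but 117 bases. Over the 5 paralogues with an exon 3 of equal length, 54.96% to 73.9% of bases were identical to prestin, with a median of 66.7%. The next highest median was that of exon 9, 57.9%, and the lowest was that of exon 17, 41.8%.

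The position of prestin's intron 4, after 570 coding bases, is shown because it was the intron position found in the most paralogues, in 8 of 9. Each line joins the last 15 coding bases before the intron, in lower case, to the first 15 after it, in capitals.
Slc26a5: tcaggaatcattcagTTTTGCCTAGGTGTC
Slc26a1: gccgggctttatcagGTCCTCATGGGTATC
Slc26a3: tctggaatcattcagTTGCTCCTGGGGGTT
Slc26a4: gttggaatcatacagCTGGTGTTTGGAGGT
Slc26a6: gtcggcctcttccagGTGGGGCTGGGCCTG
Slc26a7: ggtggagtgattcagCTGGTCATGTTTGTG
Slc26a8: actgggattattcagCTGTCAATGGGTATG
Slc26a9: actgctgtcatccagATGGCCTTGGGCTTC
The intron fell between codons, in phase 0, in every gene shown. In all 8 the last codon before it was cag. The intron itself measured 494 bases in prestin, 116 in Slc26a6, 579 in Slc26a4, 690 in Slc26a1, 1369 in Slc26a9 and 1570 in Slc26a3. It was far longer in Slc26a8, at 6174 bases, and in Slc26a7, at 24708 bases. The position was thus common to genes in which the intron differed in length by more than 100-fold. Slc26a2, whose sequence is not shown, also had it, as its only coding intron. Slc26a11 did not.

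Across the family, most members formed a group with prestin's exon layout, and Slc26a1, Slc26a2 and Slc26a11 stood outside it. The median member had 18.5 coding exons. Beside this, the median was 23 over 10 SLC4 genes, mostly bicarbonate transporters, of the same overall fold. It was 14 over the 3 SLC23 genes found, nucleobase and ascorbate transporters of that fold. The median coding exon was short, with a median over the members of 110.75 bases beside 139 bases over protein-coding genes. Gene span varied more than coding length. Spans ran from 5.692 kb in Slc26a1 to 119.376 kb in Slc26a7, while coding sequences ran from 1782 bases in Slc26a11 to 3000 bases in Slc26a8. The members had a median span of 46.174 kb, beside 16.5685 kb over protein-coding genes.

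Among the chloride and bicarbonate exchangers, Slc26a3 (ENSMUSG00000001225), the exchanger of the gut surface also called DRA, lay at chr12:31390871-31473917 on the plus strand. It had 21 exons, 20 of them coding. Slc26a4 (ENSMUSG00000020651) lay at chr12:31519827-31559969 on the minus strand, also with 21 exons and 20 coding exons. Slc26a6 (ENSMUSG00000023259), an exchanger of chloride with oxalate, formate and bicarbonate in kidney and gut, lay at chr9:108853283-108913049 on the plus strand and had 20 coding exons, or 19 if the pair that lies 1 base apart is joined. These 3 genes had 2274, 2343 and 2205 coding bases, close to the 2235 of prestin. The 2205 bases of Slc26a6 come from a model without a stop codon, so they are not a complete coding sequence.

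Slc26a9 (ENSMUSG00000042268), a chloride channel of airway and stomach epithelia, had 20 coding exons at chr1:131744022-131771504 on the plus strand. Slc26a7 (ENSMUSG00000040569), a chloride transporter of stomach, kidney and thyroid, had 18 at chr4:14502430-14621805 on the minus strand. It had the widest span of the 10 but a coding sequence of only 1971 bases. Slc26a8 (ENSMUSG00000036196), a testis anion transporter needed by sperm, had 19 at chr17:28637783-28689987 on the minus strand. Its protein of 999 residues was the longest of the family.

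The sulfate transporters were built otherwise. Slc26a1 (ENSMUSG00000046959), a sulfate and oxalate transporter of liver and kidney, lay at chr5:108669878-108675569 on the minus strand with 3 coding exons of 21, 618 and 1524 bases. These are the exons of Slc26a1-003. The other complete models, Slc26a1-001 and Slc26a1-201, had 2 coding exons and 704 residues. Slc26a2 (ENSMUSG00000034320), the sulfate transporter of cartilage whose loss causes chondrodysplasias, lay on the minus strand of chromosome 18 with 2 coding exons of 699 and 1521 bases. Both kept proteins of ordinary length, 720 and 739 residues. Slc26a11 (ENSMUSG00000039908), described as a sulfate transporter and chloride channel, had 16 coding exons at chr11:119355557-119381079 on the plus strand and the shortest protein, 593 residues. Prestin and Slc26a1 were on the same chromosome but 86.8 Mb apart.

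**Figure D1:**
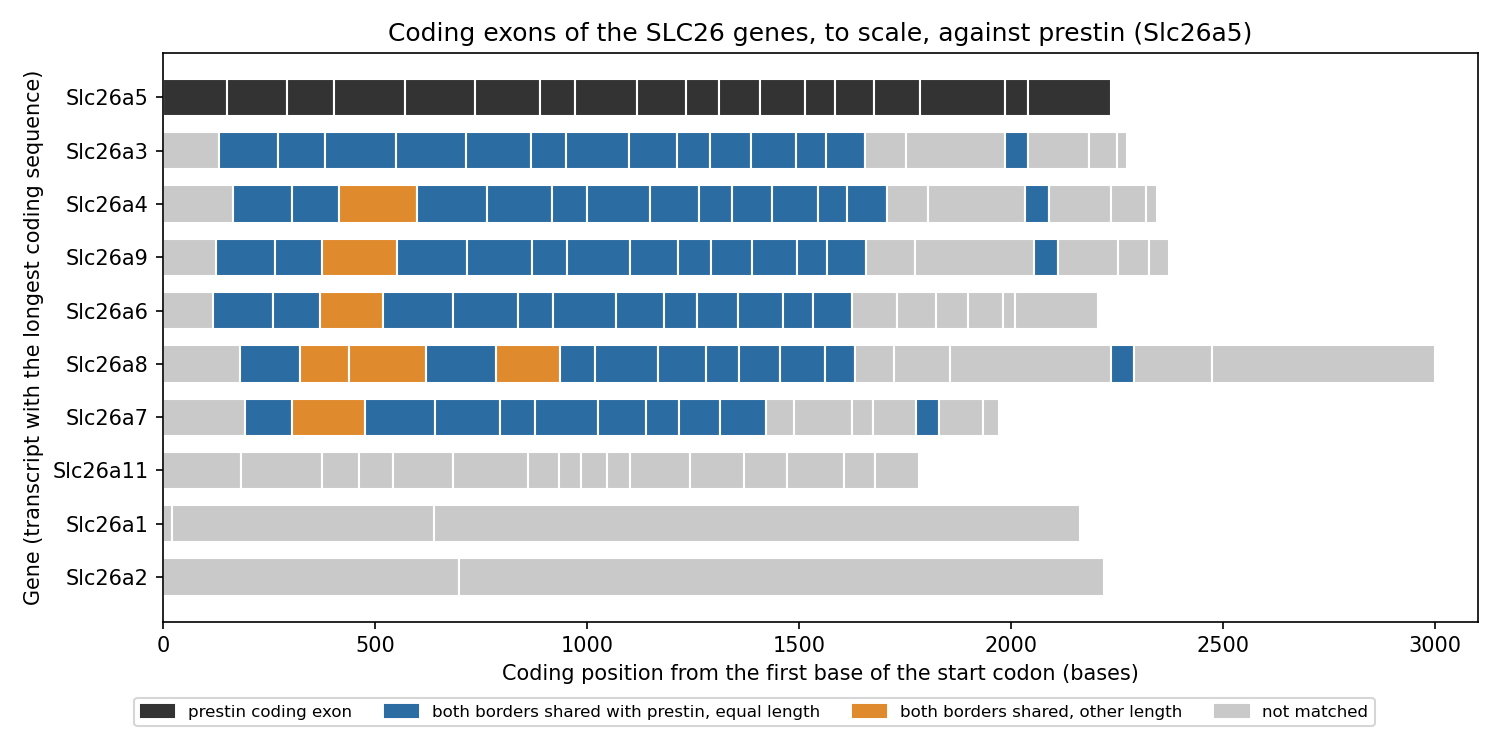
Coding exons of the representative transcript of each of the 10 SLC26 genes drawn end to end, with the position in the coding sequence in bases on the horizontal axis and 1 gene per row. Blue exons share both borders and the length with a prestin exon, orange exons share the borders only, and a blue stretch recurs through the middle of 6 rows while Slc26a1, Slc26a2 and Slc26a11 have no coloured exon.

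Runs of coding exons with prestin's exact lengths were long in 6 of the 9 paralogues. Slc26a3 matched prestin in 13 consecutive lengths, from exon 2 to exon 14. Slc26a4, Slc26a6 and Slc26a9 each matched 10, from exon 5 to exon 14. Slc26a7 matched 8, from exon 5 to exon 12, and Slc26a8 matched 8, from exon 7 to exon 14. Thus 6 of 9 paralogues had at least 3 consecutive lengths of prestin, beside 0.0364% of 21989 protein-coding genes, which is 8 genes with these 6 included. The other genes were Slc26a10, with a run of 9, and Gripap1, whose product binds a synaptic scaffold protein, with a run of 3. Slc26a1, Slc26a2 and Slc26a11 had a run of 0, meaning that none of their coding exons had the length of a prestin exon. The run was counted on lengths alone, without any alignment of the proteins.

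Aligning the translated proteins set apart the same 6 paralogues by number of shared introns. Slc26a1 and Slc26a2 differed here from Slc26a11, as each had 1 intron at a prestin position. A coding intron was counted as shared when it fell in the same aligned codon and the same phase as a prestin intron. Of 129 coding introns in the 9 paralogues, 92 were shared with prestin. Slc26a3, Slc26a4 and Slc26a9 each shared 16 of their 19 introns (84.2%). Slc26a8 shared 15 of 18 (83.3%), Slc26a7 13 of 17 (76.5%) and Slc26a6 14 of 19 (73.7%). The count for Slc26a6 includes a gap of 1 base between its coding exons 17 and 18, without which it shared 14 of 18 (77.8%) and the family 92 of 128. Slc26a2 shared its 1 coding intron and Slc26a1 shared 1 of the 2 in Slc26a1-003, whereas Slc26a11 shared 0 of 15. By the share of own introns Slc26a2 therefore came first, but on 1 intron, and Slc26a3, Slc26a4 and Slc26a9 followed as equals. Slc26a10 shared 14 of its 17 introns.

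Not every stretch of prestin was alike in this respect. Introns 2, 3 and 5 to 12 were each found in 6 paralogues, Slc26a3, Slc26a4, Slc26a6, Slc26a7, Slc26a8 and Slc26a9. Introns 1 and 13 were each found in 5, intron 14 in 4, and intron 15, after 1785 coding bases, in 0. Introns 16 and 17 were again found in 5 paralogues, Slc26a3, Slc26a4, Slc26a7, Slc26a8 and Slc26a9. The 55-base exon 17 between them recurred at 55 bases in all 5. Intron 15 counted as shared with Slc26a3 and with Slc26a4 only when positions up to 3 codons apart were accepted, which added 1 intron to each.

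Prestin also ended its coding sequence with fewer exons. After the 55-base exon it had 1 coding exon of 194 bases. Slc26a3 had 3 there, of 143, 66 and 24 bases, Slc26a4 had 146, 84 and 24 bases, and Slc26a9 had 143, 72 and 48 bases. Slc26a8 had 185 and 525 bases in that place and Slc26a7 had 104 and 36 bases. The exon just before the 55-base exon varied as well, from 101 bases in Slc26a7 and 201 in prestin to 378 in Slc26a8. The lengths that varied most thus lay towards the 3' end of the coding sequence, apart from the 55-base exon, and in exons 1 and 4.

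In total 79 paralogue exons had both borders in common with a prestin exon, and 72 of these had the same length. All 14 such exons of Slc26a3 were equal in length, as were 13 of 14 in Slc26a4, 13 of 14 in Slc26a9 and 12 of 13 in Slc26a6. Slc26a7 had 10 of 11 and Slc26a8 10 of 13. Exon 4 accounted for 5 of the 7 exceptions. Against 167 bases in prestin it ranged from 149 to 185 bases, and it was equal in Slc26a3 only. Intron phases in prestin were 11 in phase 0, 3 in phase 1 and 3 in phase 2. Slc26a11 departed from this with 5, 8 and 2.

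**Figure D2:**
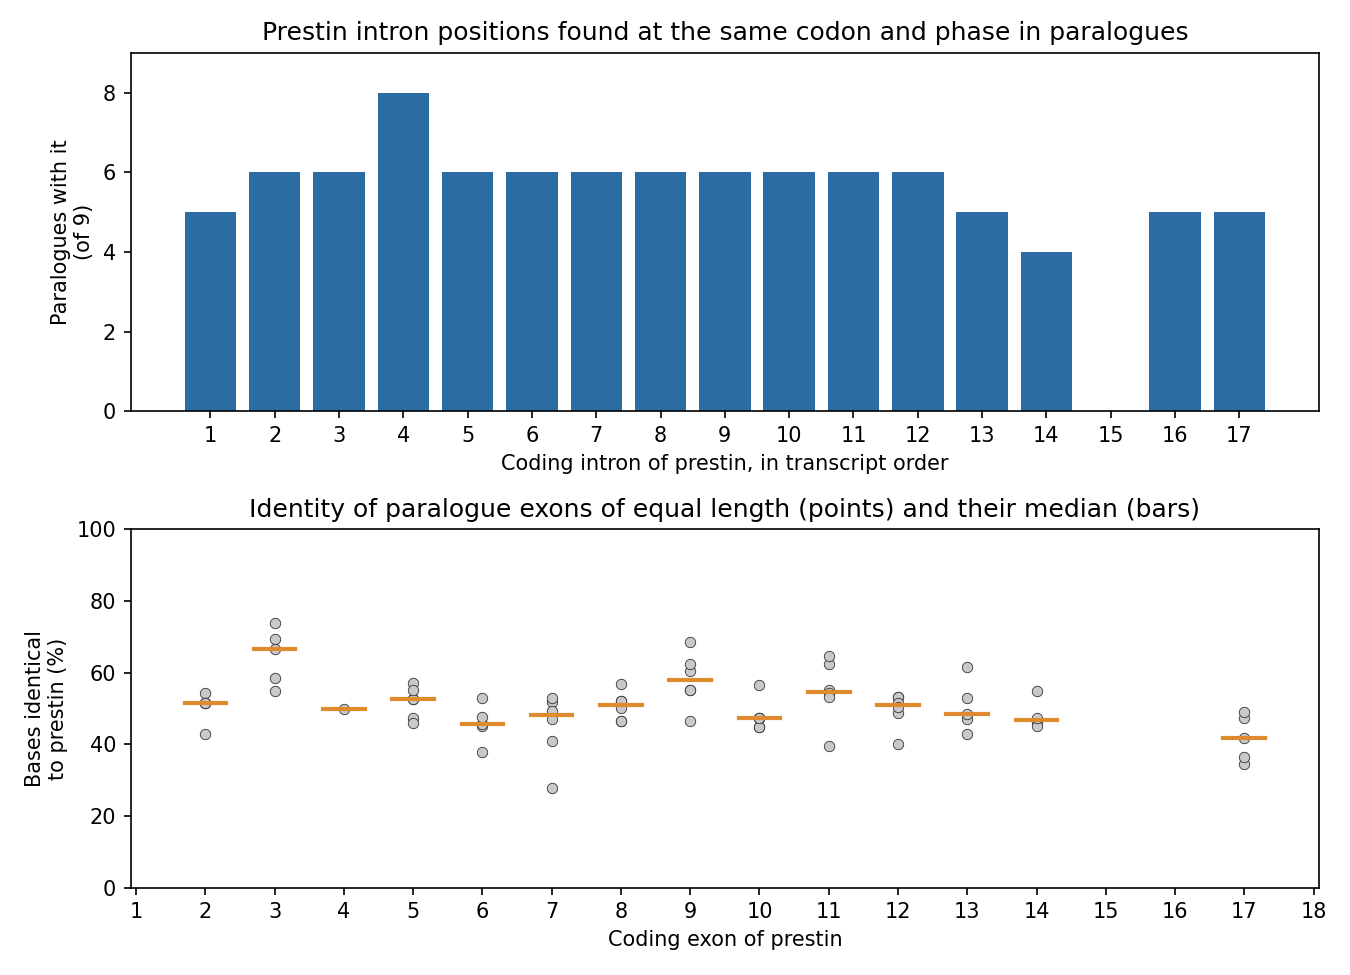
Upper panel, number of the 9 paralogues (vertical axis) with each of prestin's 17 coding introns (horizontal axis) at the same codon and phase; lower panel, percent of bases identical to prestin in each paralogue exon of equal length (points) with the median (bars). Intron 4 is found in 8 paralogues and intron 15 in 0, and exon 3 has the highest median, 66.7%.

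Protein identity and intron sharing gave different orders of likeness to prestin. Slc26a6 had the most identical residues, 43.6% of 691 aligned, followed by Slc26a4 with 39.4% and Slc26a2 with 38.2%. Slc26a3 had 37.96%, Slc26a9 36.4%, Slc26a1 35.5% and Slc26a7 31.2%. Slc26a11, at 29.96%, and Slc26a8, at 29.1%, were the least alike. Slc26a8 thus shared 15 introns with prestin at the lowest identity of the 9. Slc26a2, at the third highest, could share no more than its 1 coding intron. Over all 45 pairs in the family, identity ran from 25.5% to 48.7% with a median of 32.4%. The highest value was that of Slc26a3 with Slc26a4, and Slc26a1 with Slc26a2 came next at 47.5%. The most shared introns, 18, were those of Slc26a3 with Slc26a9, at an identity of 36.6%.

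**Figure D3:**
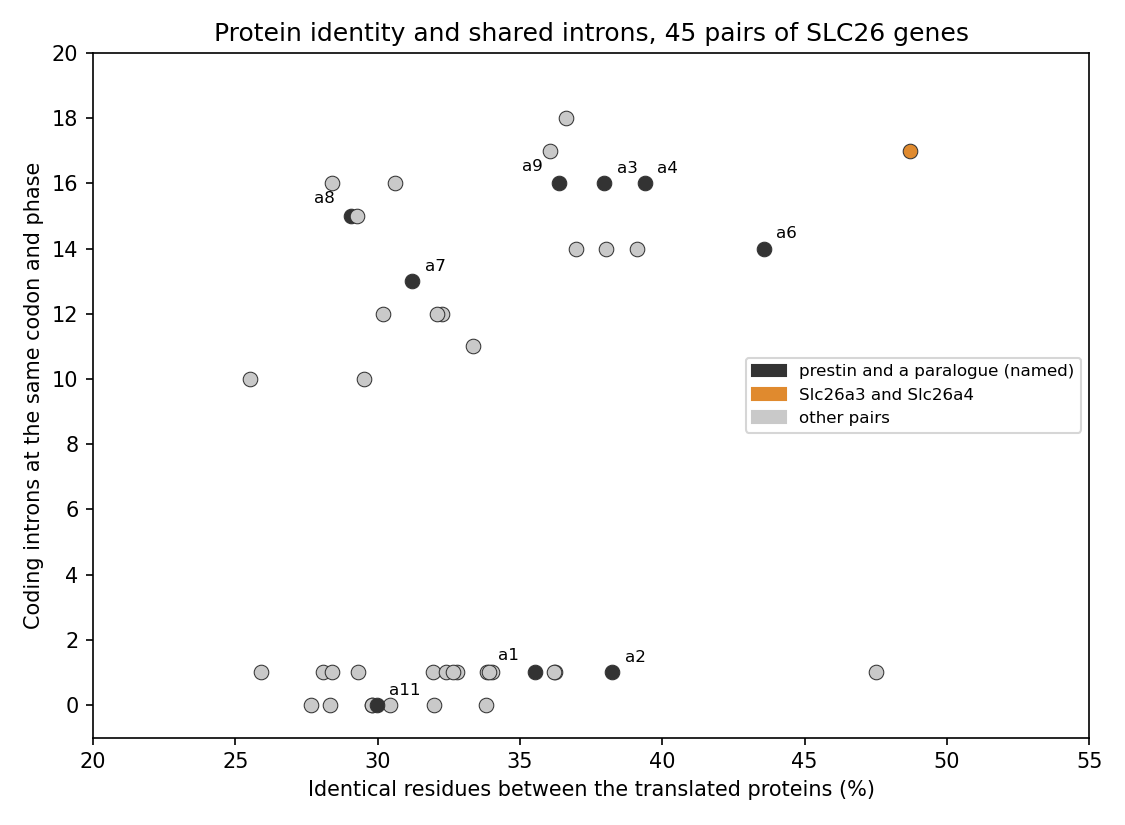
Each point is 1 of the 45 pairs of SLC26 genes, with percent identical residues on the horizontal axis and the number of coding introns at the same codon and phase on the vertical axis. Pairs fall into those with at least 10 shared introns and those with 0 or 1. The count in pairs with Slc26a1 or Slc26a2 is capped by the 2 and 1 coding introns of these genes. Among the pairs with prestin (black), Slc26a2 lies in the low set at 38.2% identity while Slc26a8 lies in the high set at 29.1%.

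The family had 45 annotated transcripts. Of these 26 were protein-coding, 6 were marked for nonsense-mediated decay, 8 retained an intron and 5 were processed transcripts without coding sequence. The number per gene ran from 1 in Slc26a4 to 10 in Slc26a6, with a median of 4 beside 2 over protein-coding genes. Of the 26 protein-coding transcripts 13 held both a start and a stop codon.

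Prestin had 5 transcripts. Slc26a5-002 lacked the 111-base exon 3 shown above and kept all 17 other coding exons, for 2124 coding bases and 707 residues. The exon holds 37 codons' worth of bases, so the reading frame was kept. Outside the coding sequence the models differed too, with 20 exons and a 5' UTR of 234 bases in Slc26a5-001 and 18 exons and 151 bases in Slc26a5-002. Slc26a5-002 began 3606 bases downstream of Slc26a5-001, whose first base was also the start in RefSeq's promoter table. Slc26a5-004 lacked exon 11, of 96 bases. It ended at base 21811149 of chromosome 5, next to the last coding base of exon 18, 21811148, so its stop codon was incomplete. Slc26a5-003, marked for nonsense-mediated decay, lacked exons 10, 11, 13 and 15. Slc26a5-005 retained intron sequence, had no coding sequence and covered exons 11 to 13 with the first 11 of the 93 bases of exon 14. Exon 11 was absent from both Slc26a5-003 and Slc26a5-004. Both of these and Slc26a5-005 carried transcript support level 5, whereas Slc26a5-001 and Slc26a5-002 carried level 1, the best supported. Slc26a6-201 and Slc26a8-002, the transcripts taken above for Slc26a6 and Slc26a8, also carried level 5.

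**Figure D4:**
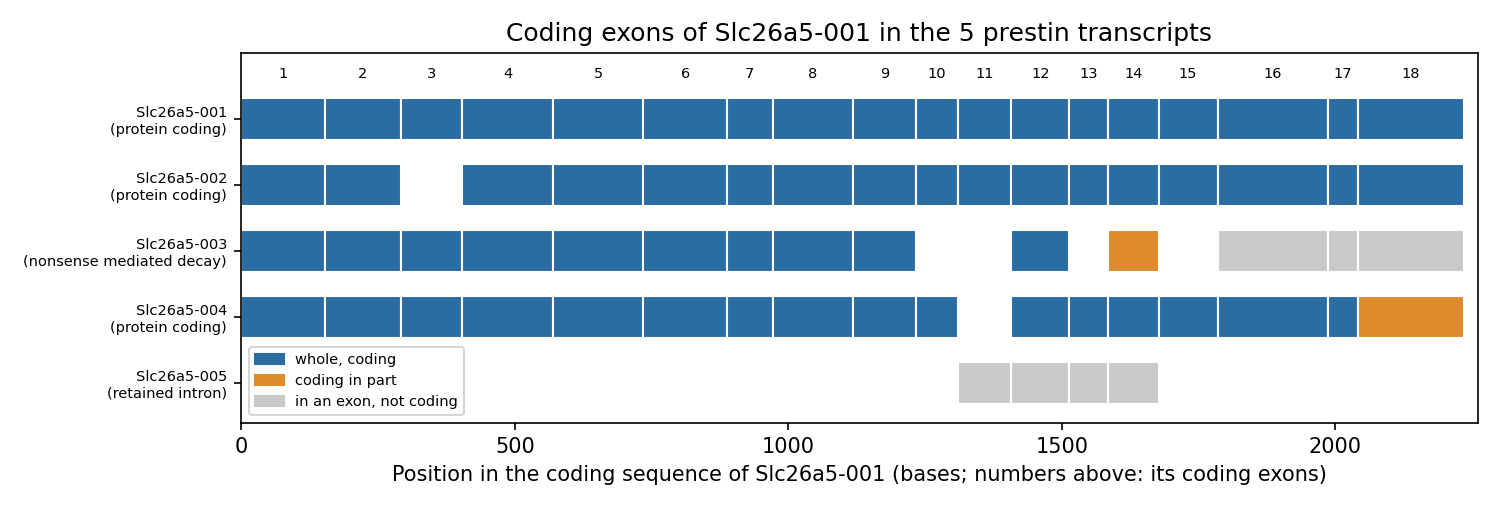
The 18 coding exons of Slc26a5-001 (numbers on top, drawn to scale along its coding sequence in bases) in each of the 5 prestin transcripts; exons held in part are drawn at full width. Among coding exons, Slc26a5-002 differs from Slc26a5-001 by exon 3 alone, and exon 11 is missing from Slc26a5-003 and Slc26a5-004.

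Because the libraries were made with a 3' end protocol, the 3' end of each model is the stretch from which reads would mostly come. Slc26a5-001 and Slc26a5-002 ended at the same base and had the same last 500 bases, within a last exon of 687 bases. The other 3 prestin transcripts each ended elsewhere, which gave prestin 4 distinct 3' ends. Its longest 3' UTR in a protein-coding transcript was 493 bases, and 64.7% of protein-coding genes had a longer one. The 3' UTRs of Slc26a6, at 266 bases, Slc26a8, at 385, and Slc26a4, at 517, were likewise short. Those of Slc26a9, at 2256 bases, Slc26a7, at 3037, and Slc26a2, at 5219, were long. That of Slc26a2 was exceeded by 2.42% of the 19931 genes. Slc26a1 had 1339 bases, Slc26a11 791 and Slc26a3 664. The median over the members was 727.5 bases, beside 851 over the 19931 genes. The 664 bases of Slc26a3 belonged to Slc26a3-007, a model without a start codon that spanned 952 bases, and the full-length Slc26a3-001 had 422. Likewise, the 266 bases of Slc26a6 belonged to Slc26a6-001, a model without a start codon that spanned 640 bases. The other protein-coding transcripts of Slc26a6 had no stop codon and so no 3' UTR.

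No member had an exon of another gene on its own strand within the last 500 bases of any transcript, 0 of 10 beside 3.24% of protein-coding genes. Counting either strand, 1 of 10 did, Slc26a1, beside 14.3%. Its partner was Idua (ENSMUSG00000033540), the gene of the lysosomal enzyme alpha-L-iduronidase, on the plus strand at chr5:108660331-108684557. Idua covered 141 of the last 500 bases of Slc26a1-001 and 0 of those of the other 3 Slc26a1 transcripts. Slc26a1 lay wholly within the span of Idua. It was the only member, 1 of 10, whose gene overlapped another, beside 28.7% of protein-coding genes.

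A poly(A) signal is the hexamer that directs cleavage of the transcript and addition of its tail. The words AATAAA and ATTAAA were sought on the transcript strand in the last 50 bases of the outermost protein-coding 3' end. They were found in 8 of 10 members, beside 77.4% of 16187 protein-coding genes with a sequence. The ends of 7 members are shown from 6 bases before the word, in capitals, for at most 30 bases. That of Slc26a2, which held AATAAA starting 21 bases from the end, is not shown.
Slc26a3: tattttATTAAAtgtgtcagttttctg
Slc26a4: aaagaaAATAAAaccaatctttt
Slc26a6: tttgggAATAAAtttgtctgtccaacttca
Slc26a7: catagaAATAAAttgaaatatgttaactac
Slc26a8: gacttgAATAAAatatgggactgtacttaa
Slc26a9: tttggtAATAAAgtggtcttgaaatgtgaa
Slc26a11: tattgtATTAAAatacaatattctgtgggt
ATTAAA was the word in Slc26a3 and Slc26a11, and AATAAA in the other 6. The word began between 17 bases from the end, in Slc26a4, and 29 bases from it, in Slc26a11. Prestin and Slc26a1 had neither word there. Prestin's 493-base 3' UTR held 0 copies along its whole length although 64.1% of its bases were A or T. The 1339-base 3' UTR of Slc26a1-001 also held 0, at 49.3% A or T. The absence says only that these letters were not in these stretches.

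Slc26a6 was the member with an incomplete model. It had no protein-coding transcript with both a start and a stop codon, 1 of 10 members beside 2.6% of protein-coding genes. Its longest coding transcript, Slc26a6-201, began with a start codon, ended without a stop codon and had a last intron of 50254 bases, whereas its next longest intron had 1590. Of its 10 transcripts 8 ended before the last exon of Slc26a6-201. Of these, 2 ended before that intron and 6 ended at base 108862143 of chromosome 9, which is 35 bases into it. The same model also placed 1 base between coding exons 17 and 18, a gap too short for a spliced intron. Slc26a6-001 lay wholly beyond the intron and alone held AATAAA near its end. In the other 9 Slc26a6 transcripts neither word was found in the last 50 bases. The 59.767 kb span of the gene was thus due mostly to this intron. GENCODE M21 held 0 complete protein-coding transcripts of Slc26a6 as well, and 0 genes inside the intron.

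Slc26a3 and Slc26a4 were neighbours on chromosome 12 with their 3' ends facing each other. The 2 genes together covered 169.099 kb, of which 45.909 kb lay between their 3' ends. Between them were 3 genes: Cbll1, a protein-coding gene for an E3 ubiquitin ligase, on the minus strand, the antisense gene Gm29542 on the plus strand and the long intergenic non-coding RNA gene Gm29541 on the minus strand. Dld, the gene of dihydrolipoamide dehydrogenase, lay 39.433 kb upstream of Slc26a3. Bcap29, the gene of a membrane protein of the endoplasmic reticulum, lay 35.384 kb upstream of Slc26a4. The span of Slc26a3 rested on Slc26a3-005, a model without a stop codon that began 47.348 kb upstream of Slc26a3-001, and Slc26a3-001 alone spanned 35.699 kb.

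The pair had 17 of their 19 coding introns at the same codon and phase, and the 2 unshared introns were the last. Of 17 exons that corresponded, counting exon 1, whose coding part begins at the start codon, 14 had equal lengths. In the comparison with prestin exon 1 was not counted. Exon 1 was 131 bases in Slc26a3 and 164 in Slc26a4, exon 4 was 167 and 185, and exon 16 was 234 and 231. In the 14 exons of equal length 47.1% to 70.5% of bases were identical, with a median of 55.3%. Exon 10, of 78 bases, was the most alike and exon 13, of 70 bases, the least. Prestin had the length of Slc26a3 in exon 4, 167 bases, and not that of Slc26a4.

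**Figure D5:**
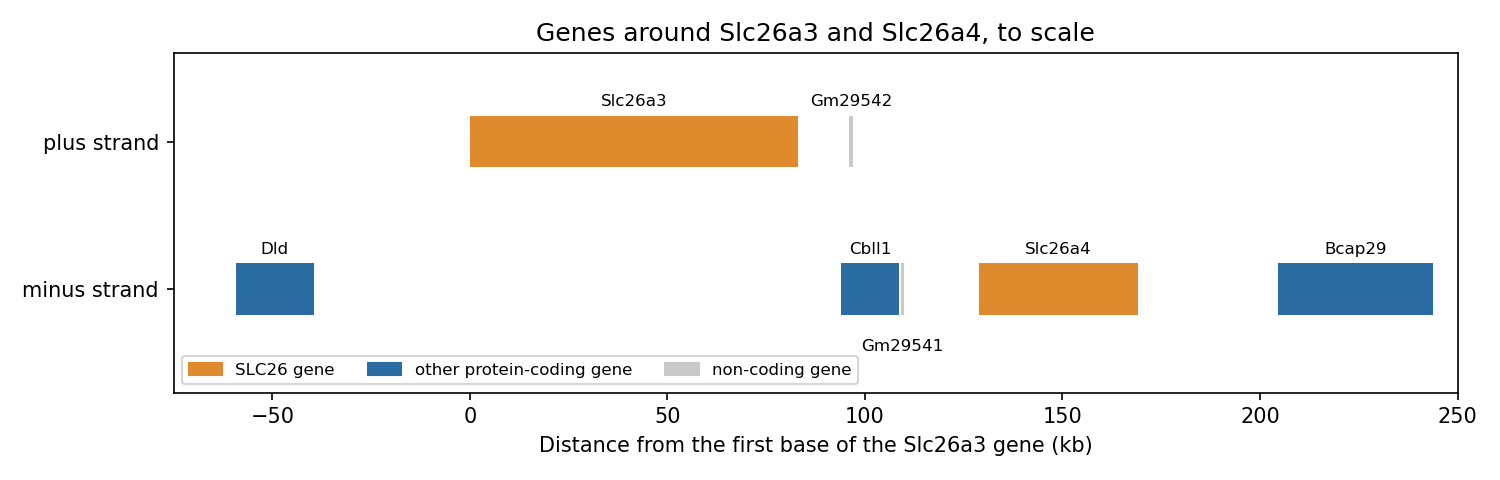
Genes around Slc26a3 and Slc26a4 drawn to scale, with the distance from the first base of Slc26a3 in kb on the horizontal axis and the strands in 2 rows. The SLC26 genes (orange) face each other with Cbll1 and 2 short non-coding genes between them, over the 45.909 kb that separate their 3' ends.

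The neighbours of the other members were of many kinds. Upstream of prestin, 18.849 kb away on the same strand, lay Reln, the gene of the extracellular matrix protein reelin. Downstream, 6.867 kb away on the opposite strand, lay Psmc2, the gene of a proteasome ATPase, so prestin and Psmc2 were convergent. Among neighbours that overlapped no member, the closest was Sgsh, the gene of the lysosomal enzyme sulfamidase. Its gene row began 20 bases from that of Slc26a11 on the opposite strand. Dgkq, a diacylglycerol kinase gene, lay 205 bases beyond the 3' end of Slc26a1, and Celsr3, a cadherin gene, ended 313 bases upstream of Slc26a6. Mapk14, the gene of a stress-activated kinase, lay 1354 bases upstream of Slc26a8, and Lrrc69 lay 1814 bases upstream of Slc26a7. Downstream of Slc26a7 the next gene, 1700120G11Rik, was 264.979 kb away. Slc26a2 lay between Pde6a, 8.869 kb upstream, and Hmgxb3, 15.868 kb downstream. Slc26a9 lay between Rab7b, 28.582 kb upstream, and Pm20d1, 25.876 kb downstream. On their other sides, Fgfrl1 lay 16.812 kb upstream of Slc26a1, Tmem89 1569 bases downstream of Slc26a6, Srpk1 15.261 kb downstream of Slc26a8 and Rnf213 12.02 kb downstream of Slc26a11.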

How the data were processed

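The values are start and end positions in bases from the gene annotation deposited by the authors. It uses GRCm38 patch 4 and a 2016 gene build, per the file headers. It holds 0 columns of per-sample values, so depth and precision concern no value here, and with 1 library per group no test was made. Cell Ranger 2.0.2 is listed, without a role, in the submitters' processing notes.

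The representative transcript was the protein-coding one with the longest coding sequence, stop codon included. Coding sequences of the 45 member transcripts came from GENCODE M21 transcripts of the same identifier, version and length. Translations were aligned globally with Biopython 1.88 (BLOSUM62, gap opening -11, extension -1, end gaps 0), or with MAFFT 7.526. Transcript starts were compared with RefSeq promoters on GRCm38.p6. Overlap meant at least 1 base. Tested on simulated data, all 200 gene models gave the right coding exons, 3' UTR and shared window, and 94.4% of planted shared introns were recovered. The simulated proteins had a fixed identity above the median of 36.4% with prestin, so recovery at lower identities was not tested. Python 3.11.15 was used.

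The text names every member, the nearest gene on each side, the genes between Slc26a3 and Slc26a4 and those in a member's last 500 bases. Gripap1 and Slc26a10 were named after their values were seen, as were the exon, intron and ends shown. Members and lists were chosen with earlier results of these data known. The result of 1 further list is not reported here. The run of equal lengths was added after seeing the data.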

Additional observations from a re-analysis of the deposited data

How the results depend on the processing

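Of 22 alternatives to the family values, 15 left the value within its limit. With the transcript named -001 in place of the longest coding sequence, the median number of coding exons was 17 in place of 18.5, Slc26a1 and Slc26a6 having 2 each. That median covers 8 members, since Slc26a4 and Slc26a8 have no such transcript, and was 18 with these 2 kept at their own values. Joining the Slc26a6 exons that lie 1 base apart left the median at 18.5 and the shared introns at 92. The median span was 37921 bases over representative transcripts in place of 46174, and Slc26a3 spanned 35699 bases in place of 83047. The median number of transcripts was 3 with protein-coding ones only, in place of 4. The median 3' UTR was 613 bases with the median per gene and 654 bases in M21, in place of 727.5. With either strand counted, 1 member had a shared last 500 bases in place of 0. Introns shared with prestin numbered 92 with MAFFT and 95 within 3 codons, beside 92, and MAFFT gave Slc26a8 16 in place of 15 and Slc26a7 12 in place of 13. The poly(A) count was 6 of 10 with AATAAA only, while the 77.4% over protein-coding genes covers both words. Runs of at least 2 equal lengths also gave 6 members, beside 106 genes outside the members. Runs of at least 4 gave 6 members, beside 1 gene outside them. The runs, the joined exons and the median of 18 were chosen after seeing the data. In M21, 9 of 10 members had the same start and end and all 45 transcripts the same exons. The number of transcripts did change, to 52 in M21. Slc26a8 had 8 there in place of 2, and Slc26a4 had 2 in place of 1. No paired analysis was possible because no result comes from a test. Depth limits no value here, since none is a read count.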
